A study of Mus musculus with 4 samples.

Results

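The genes described here are 9 inducible heat shock protein genes, Hspa1a, Hspa1b, Hsph1, Dnajb1, Dnaja1, Hsp90aa1, Hspa8, Hspe1 and Hspd1. They were taken by symbol, and each symbol matched 1 of the 31053 genes counted, so all 9 were present. They were listed with earlier results of the same libraries in view, so their difference between the tumour genotypes is a description. Every p-value of that difference describes the fit and supports nothing beyond it. Levels between cell types were not used to list the genes or to gate the cells, and were tested. That test took both genotypes together, so its levels are not free of a genotype change that differs between classes.

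Heat shock proteins are chaperones, which hold, fold and refold other proteins. Heat, hypoxia, oxidants, inflammation and the handling of tissue can release heat shock factor 1 (HSF1), which binds heat shock elements before these genes. Cells make the stress-inducible genes of this family only weakly at rest, whereas Hspa8 and the mitochondrial pair Hspd1 and Hspe1 are made in most cells at all times. In the immune cells of tumours these genes are of interest both as a mark of stress in the tissue and as a response that starts while a tissue is taken apart into single cells.

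The data were single-cell RNA counts from 4 libraries of immune cells that had infiltrated brain tumours. The mice were C57BL/6 and were sampled once symptomatic. The tumours came from a genetically engineered glioma model, and their labelled genotype was wtIDH1 in 2 libraries and mIDH1 in the other 2. IDH1 is isocitrate dehydrogenase, whose mutant form in glioma makes 2-hydroxyglutarate, and the stated aim was to resolve the kinds of infiltrating myeloid cell in the 2 settings. The sources used here do not give the promoter, the other engineered alleles, the age or sex of the mice, the gate or enrichment of the immune cells, or whether a library held 1 animal or several. The p-values therefore measure the spread between libraries, which may be technical.

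The libraries held 16289 cell barcodes and 97361527 unique molecular identifiers (UMIs, 1 per captured RNA molecule). Of these, 13569 cells were kept, between 3055 and 3767 a library. The median depth was 5071 and 4977 UMIs a cell in the wtIDH1 libraries against 3534 and 2740 in the mIDH1 libraries. Cells were placed in classes by 8 marker genes a class, none of them a heat shock gene, and are called neutrophil-like, monocyte-like and so on. In 6 classes every library held at least 30 cells, and these classes held 8680 cells. Neutrophil-like cells numbered 84 and 153 in the wtIDH1 libraries against 689 and 1468 in the mIDH1 libraries. Another 3605 cells fell in no class, and 454 carried markers of more than 1 lineage and were set apart as possible doublets. The libraries shared 53 barcodes, and no count of genes called in the comparisons moved by over 1.5 times without them. Levels are given in CPM, the UMIs of a gene scaled to the total UMIs of a class in 1 library. In such sums, fewer expressing cells and less RNA per cell cannot be told apart.

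Hspa1a and Hspa1b encode the stress-inducible HSP70, and lie side by side as single-exon genes at chr17:34969190-34972156 and chr17:34956436-34959238, both on the minus strand (mm10). The 250 bases before each RefSeq start site (GRCm38.p6) are shown because this pair had the largest fold changes between genotypes in neutrophil-like, monocyte-like and macrophage-like cells. Capitals mark a match to 2 units of the heat shock element, GAANNTTC or TTCNNGAA, a letter string that reads the same on either strand.
Hspa1a, chr17:34972157-34972406, minus strand: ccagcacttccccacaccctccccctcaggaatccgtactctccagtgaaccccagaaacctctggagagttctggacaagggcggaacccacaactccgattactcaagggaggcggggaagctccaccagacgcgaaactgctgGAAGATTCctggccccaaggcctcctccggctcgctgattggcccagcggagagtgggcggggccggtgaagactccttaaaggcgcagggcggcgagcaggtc
Hspa1b, chr17:34959239-34959488, minus strand: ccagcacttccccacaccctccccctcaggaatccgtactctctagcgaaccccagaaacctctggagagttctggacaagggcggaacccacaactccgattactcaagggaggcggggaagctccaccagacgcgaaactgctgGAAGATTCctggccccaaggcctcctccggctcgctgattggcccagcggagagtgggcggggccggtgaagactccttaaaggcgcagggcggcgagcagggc
The windows were identical at 247 of 250 bases, and in both the match lay 104 to 97 bases before the start. The transcribed parts were alike as well, so counting can split the pair. Of the 50-base windows of the coding sequence, 82.4% of Hspa1a's and 82.3% of Hspa1b's occurred in the other gene, against 0 of 451 windows in the last 500 bases of each transcript. Whether the library kit read the 3′ or the 5′ end is not given in the sources used here. The genes are therefore given singly and as a sum, called Hspa1.

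RefSeq windows were found for 7 of the 9 genes, and 6 of the 7 held the 2-unit string, against 14.6% of 27018 genes. The longer string of 3 units, GAANNTTCNNGAA or TTCNNGAANNTTC, was found for 2 of the 7, against 0.514% of all genes. Those 2 are Hspe1 and Hspd1, which start on opposite strands and hold the same stretch in both windows. Shown next are 30 bases of that stretch and of those holding the matches of Hsph1 and Dnaja1, with the matched bases in capitals.
Hspe1, chr1:55088053-55088082, plus strand, match 89 to 72 bases before its start: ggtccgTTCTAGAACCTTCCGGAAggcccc
Hsph1, chr5:149636351-149636380, minus strand, match 54 to 47 bases before its first start: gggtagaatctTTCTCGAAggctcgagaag
Dnaja1, chr4:40722333-40722362, plus strand, match 124 to 117 bases before its start: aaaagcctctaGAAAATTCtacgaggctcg
On the strand of Hspd1 the shared stretch lay 144 to 127 bases before 1 start site, and the window of its other start site held no match. The match of Dnaja1 lay before 1 of its start sites, and the windows of the others held none. The window of Dnajb1 held no match. These are matches of letters and not measured binding sites.

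Hspa1a and Hspa1b rose with mIDH1 in monocyte-like and macrophage-like cells, and Hspa1b in microglia-like cells. In neutrophil-like and T cell-like cells neither passed the threshold, and in NK cell-like cells neither was tested. In monocyte-like cells Hspa1a was at 47.9 and 32.2 CPM in the wtIDH1 libraries and at 149 and 183 CPM in the mIDH1 libraries. Hspa1b was at 40.1 and 34.5 CPM against 155 and 166 CPM. Both mIDH1 libraries lay above both wtIDH1 libraries for each gene, and the libraries of a genotype lay close together. The log2 fold change (mIDH1 over wtIDH1) was 2.24 (SE 0.24, edgeR quasi-likelihood test, Benjamini-Hochberg adjusted p = 0.000577) for Hspa1a and 2.30 (SE 0.19, adjusted p = 0.000168) for Hspa1b. Of all genes tested in this class, 16.1% passed the threshold of 0.05, and 22% had both mIDH1 libraries above both wtIDH1 libraries.

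In macrophage-like cells Hspa1a was at 55 and 28.8 CPM in the wtIDH1 libraries and at 115 and 200 CPM in the mIDH1 libraries. Hspa1b was at 57.4 and 46.9 CPM against 141 and 331 CPM. The groups did not overlap, though the mIDH1 libraries differed from each other more than in monocyte-like cells. The log2 fold change was 2.13 (SE 0.35, edgeR adjusted p = 0.00615) for Hspa1a and 2.36 (SE 0.36, adjusted p = 0.00494) for Hspa1b, in a class where 11.3% of genes passed.

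Neutrophil-like cells showed the widest spread. Hspa1a was at 38.9 and 27.0 CPM in the wtIDH1 libraries, from 7 and 9 UMIs, and at 488 and 131 CPM in the mIDH1 libraries, from 808 and 522 UMIs. Hspa1b was at 55.5 and 39.0 CPM, from 10 and 13 UMIs, against 649 and 139 CPM, from 1074 and 554 UMIs. The first mIDH1 library stood far above the second, and both stood above the wtIDH1 libraries. The log2 fold change was 3.65 (SE 0.58) for Hspa1a and 3.46 (SE 0.62) for Hspa1b, and neither passed the threshold (edgeR adjusted p = 0.0547 and 0.0604). No gene of the 6819 tested in this class passed by edgeR (0%), while 1353 had an unadjusted p under 0.05 and DESeq2 called 167, Hspa1a and Hspa1b among them. In 11 of 13 other settings Hspa1a passed (adjusted p 8.945e-15 to 0.05987), and Hspa1b in 10 of 13 (8.945e-15 to 0.08108). A single neutrophil-like cell of the first mIDH1 library held 442 of its 1882 Hspa1 UMIs, and without it the Hspa1 level fell from 1138 to 872 CPM.

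Microglia-like cells held few Hspa1 UMIs. Hspa1b was at 5.86 and 2.32 CPM in the wtIDH1 libraries, from 3 and 2 UMIs, and at 57.5 and 19.0 CPM in the mIDH1 libraries, from 51 and 4 UMIs. Its log2 fold change was 3.69 (SE 0.64, edgeR adjusted p = 0.00127), beside 1.38% of genes called in this class. It passed in 9 of 9 other settings that gave an adjusted p. No member was called here by DESeq2, with at most 5% mitochondrial UMIs or with the stricter gate. Without the first mIDH1 library Hspa1b was left with 3, 2 and 4 UMIs and was too low to be tested. Cells with at most 5% mitochondrial UMIs held 2, 1, 7 and 4 Hspa1b UMIs (order wtIDH1 1, wtIDH1 2, mIDH1 1, mIDH1 2). Of the 51 UMIs of the first mIDH1 library, 44 lay in cells with 5% to 10%. The level of Hspa1b that RNA set free from other cells could give was estimated from S100a8 and S100a9, as described below. This estimate was 50.8 and 22.1 CPM in the wtIDH1 libraries and 38.3 and 11.1 CPM in the mIDH1 libraries. The wtIDH1 values lay under this estimate and the mIDH1 values above it, and the part of free RNA in the difference was not tested. One cell of the first mIDH1 library held 27 Hspa1 UMIs. Hspa1a was at 11.7 and 2.32 CPM against 23.7 and 14.2 CPM and was too low to be tested.

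Neither gene passed in T cell-like cells. Hspa1a was at 22.8 and 19.4 CPM in the wtIDH1 libraries and at 18.2 and 14.8 CPM in the mIDH1 libraries (log2 fold change -0.09, SE 0.26, edgeR adjusted p = 0.879). Hspa1b was at 56.5 and 35.4 CPM against 25 and 17.0 CPM (log2 fold change -0.84, SE 0.27, adjusted p = 0.0987). Here the mIDH1 libraries lay below the wtIDH1 libraries for both genes, without passing the threshold, and 4.66% of genes in the class passed. The sign turned when only cells with at most 5% mitochondrial UMIs were kept, to 2.08 (adjusted p = 0.0467) for Hspa1a and 0.22 for Hspa1b. In NK cell-like cells Hspa1a came from 21, 1, 1 and 1 UMIs and Hspa1b from 43, 2, 0 and 6 UMIs in the order wtIDH1 1, wtIDH1 2, mIDH1 1, mIDH1 2, and neither gene was tested. One NK cell-like cell held 37 of the 64 Hspa1 UMIs of the first wtIDH1 library.

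**Figure D1:**
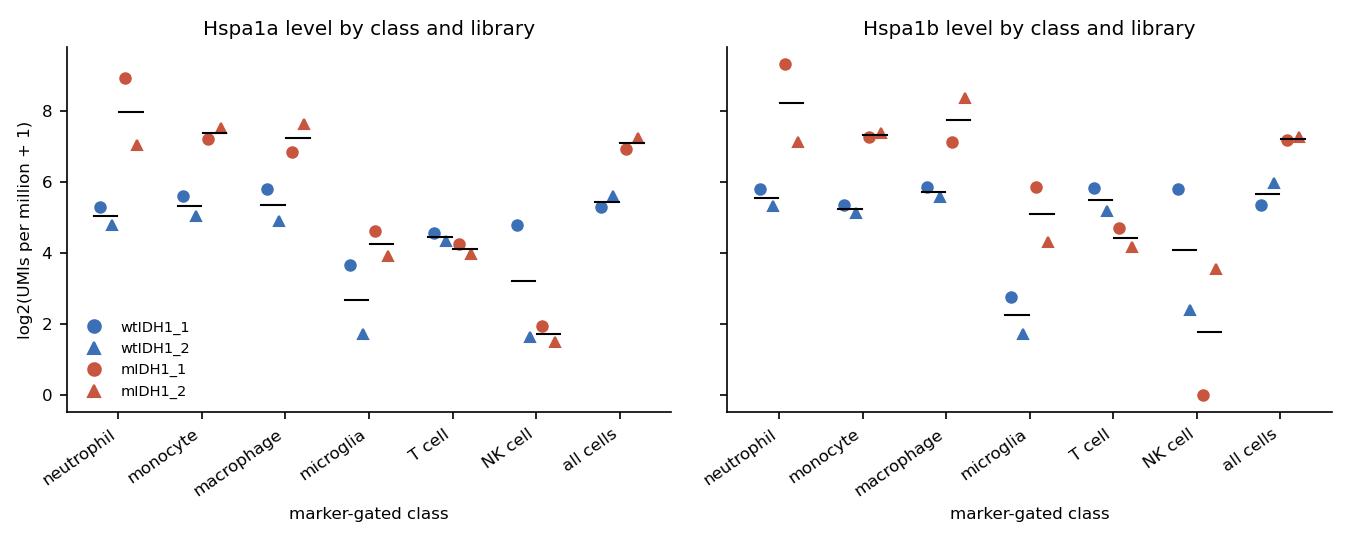
Level of Hspa1a and Hspa1b as log2 of CPM plus 1 (vertical axis) in each marker-gated class and in all kept cells (horizontal axis). Each point is 1 library, coloured by genotype, and a black line is the mean of a genotype's 2 points. The mIDH1 points lie above the wtIDH1 points in neutrophil-like, monocyte-like and macrophage-like cells, and below them in T cell-like cells.

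Summed over all kept cells, Hspa1a was at 38.3 and 48.1 CPM in the wtIDH1 libraries and at 123 and 150 CPM in the mIDH1 libraries (log2 fold change 1.86, SE 0.25, edgeR adjusted p = 0.0183). Hspa1b was at 40.3 and 62.5 CPM against 145 and 154 CPM (log2 fold change 1.74, SE 0.26, adjusted p = 0.0216). Such a sum mixes levels within classes with the shares of the classes, and 14.5% of all genes passed in it, 9.03% higher and 5.45% lower. Both mIDH1 libraries lay above both wtIDH1 libraries for 25.1% of genes and below for 40.7%. Both calls were lost without the first wtIDH1 library and without the second mIDH1 library, with adjusted p up to 0.06628 for Hspa1a and 0.07458 for Hspa1b.

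The share of cells with at least 1 Hspa1 UMI was also higher in both mIDH1 libraries in the 3 larger myeloid classes. Among monocyte-like cells it was 10.7% and 9.14% in the wtIDH1 libraries against 21.6% and 22.3% in the mIDH1 libraries. Macrophage-like cells had 8.98% and 11.0% against 20.1% and 24.0%. Neutrophil-like cells had 4.76% (Wilson 95% interval 1.87 to 11.6) and 3.27% (1.40 to 7.42) against 9.58% (7.60 to 12) and 9.74% (8.33 to 11.4). In these 3 classes both mIDH1 libraries lay above both wtIDH1 libraries, by 12.1, 12.1 and 5.65 percentage points on average. The smallest two-sided p that 2 libraries against 2 can give in an exact permutation test is 0.333, and these 3 differences reached it.

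T cell-like cells held Hspa1 UMIs in 4.35% and 4.13% of cells in the wtIDH1 libraries and in 2.96% and 4.50% in the mIDH1 libraries, so the groups overlapped. NK cell-like cells held them in 1.16%, 1.80%, 1.11% and 5.19%, and microglia-like cells in 5.43%, 2.17%, 11.9% and 7.89%, in the same order of libraries. After each cell was thinned to 1000 UMIs, to set depth aside, the shares were 3.18%, 2.58%, 9.33% and 10.9% in monocyte-like cells and 4.58%, 3.87%, 9.02% and 13.8% in macrophage-like cells. In neutrophil-like cells they were 3.16%, 2.23%, 7.72% and 6.62%. The order of the genotypes was thus the same at equal depth in these 3 classes. In microglia-like cells the groups overlapped after thinning, at 1.94%, 0.339%, 3.52% and 0.818%. Intervals cover counting error only.

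A small group of cells held most Hspa1 UMIs. Cells with 5 or more Hspa1 UMIs made up 2.51% and 1.68% of monocyte-like cells in the wtIDH1 libraries against 8.90% and 10.3% in the mIDH1 libraries, and held 80.7% to 95% of the class's Hspa1 UMIs. In macrophage-like cells they were 4.08% and 2.91% against 5.92% and 12%, and in neutrophil-like cells 2.38% and 1.31% against 4.93% and 3.68%. T cell-like cells had 1.79% and 1.81% against 0.911% and 0.901%. The share of such cells was thus higher in both mIDH1 libraries in the 3 myeloid classes and lower in T cell-like cells.

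With the cells of 5 or more UMIs set aside, the Hspa1 level of monocyte-like cells was 11.7 and 13.1 CPM in the wtIDH1 libraries and 18 and 19.1 CPM in the mIDH1 libraries. Macrophage-like cells were at 6.33 and 11.8 against 20.6 and 19.7 CPM, and neutrophil-like cells at 11.3 and 9.53 against 30.3 and 37.6 CPM. These cells were set aside on their Hspa1 count, so the levels of the rest are a description. In the mIDH1 libraries' neutrophil-like cells they were no higher than the 35.8 and 38.3 CPM estimated from free RNA for Hspa1a alone. No difference between genotypes is read from these levels. In monocyte-like cells those with 5 or more Hspa1 UMIs had median depths of 7058 to 7411 UMIs, below the class median of the same library in all 4. In macrophage-like cells they were shallower than the class in 2 libraries and deeper in the other 2.

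**Figure D2:**
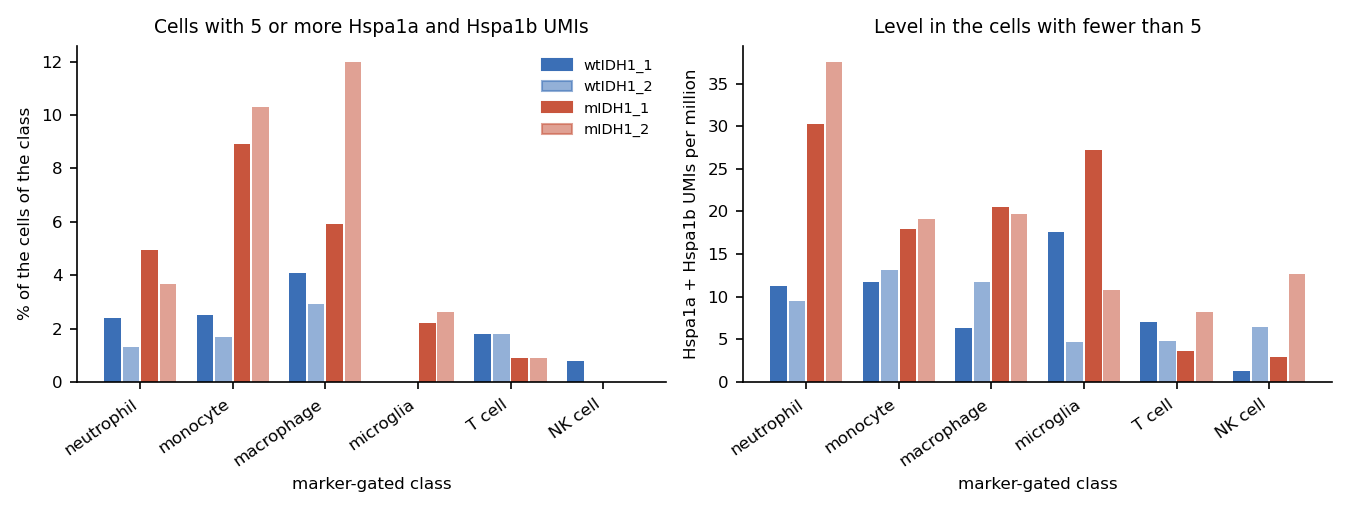
Share of cells with 5 or more Hspa1a and Hspa1b UMIs (left, percent of the cells of a class) and the Hspa1 level in the remaining cells (right, CPM), by class and library. Bars start at 0, and each is 1 library. In monocyte-like cells the share is 1.68% to 2.51% in wtIDH1 and 8.90% to 10.3% in mIDH1 libraries.

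Monocyte-like cells with Hspa1a held Hspa1b more often than those without, though in the wtIDH1 libraries most of them did not hold it. Of the monocyte-like cells with an Hspa1a UMI, 29.6% and 30.3% in the wtIDH1 libraries against 54.9% and 55.6% in the mIDH1 libraries also held Hspa1b, against 2.40% to 5.26% of the cells with none. Shared sequence between the genes can add to this overlap, and its part was not tested.

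Several other members were at higher levels in most libraries in the cells rich in Hspa1, which were chosen on Hspa1 alone. Hsp90aa1, the inducible form of cytosolic HSP90, was 7.08, 2.51, 4.35 and 3.22 times as high in CPM in those monocyte-like cells as in the rest (order wtIDH1 1, wtIDH1 2, mIDH1 1, mIDH1 2). Hsph1, the HSP110 that recharges HSP70 with ATP, was 6.85, 5.46, 5.73 and 5.43 times as high. Hspa8, the HSP70 made at all times, was 1.19, 0.990, 1.19 and 1.17 times as high there. For Hsp90aa1 and Hsph1 the ratio was thus above 2 in every library, whichever its genotype.

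In macrophage-like cells rich in Hspa1, Hsp90aa1 was 5.43, 4.95, 3.93 and 3.70 times as high as in the rest, Hspe1 3.61, 2.16, 2.62 and 1.90 times, and Hspa8 2.40, 1.97, 1.42 and 1.92 times. In the mIDH1 libraries' neutrophil-like cells Hsp90aa1 was 16.9 and 5.70 times and Hsph1 58.2 and 26.6 times as high, and Hspa8 6.79 and 4.73 times. Hspe1 was 0.788 and 7.16 times and Hspd1 0.569 and 6.13 times as high there. In the first mIDH1 library these cells held only 4 UMIs of Hspe1 and 2 of Hspd1, too few to give a direction. In the second mIDH1 library both genes were higher, though only 14.8% of these cells held Hspe1 and 11.1% held Hspd1. Hspa8 was thus level with the rest only in the monocyte-like cells of these 3 classes. The wtIDH1 libraries held only 2 such neutrophil-like cells each. Hspb1, the small heat shock protein HSP27, stood at 99.1, 22.1, 108 and 107 CPM in the monocyte-like cells rich in Hspa1 and at 0.865, 0.690, 4.49 and 14.8 CPM in the rest. Most cells rich in Hspa1 held none of it. It was found in 12.5%, 11.1%, 12.8% and 5.66% of them, from 25, 2, 61 and 52 UMIs. Of the rest 0.858%, 0.569%, 2.08% and 2.38% held it. Fos, an immediate early gene that tissue dissociation is known to raise, was 0.814, 0.842, 0.777 and 1.03 times as high in these monocyte-like cells, 0.582, 0.751, 0.487 and 0.819 times in macrophage-like cells, and 3.63 and 1.27 times in the neutrophil-like cells of the mIDH1 libraries. Jun, another immediate early gene, was 1.52, 1.18, 1.35 and 1.89 times as high in the monocyte-like cells and 1.07, 1.80, 2.90 and 1.86 times in the macrophage-like cells. Fos and Jun thus differed in direction in all but 1 of these 8 comparisons. In the neutrophil-like cells of the mIDH1 libraries Jun was 2.04 and 1.06 times as high, the same direction as Fos.

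Of the partners of HSP70, Hsph1 and Dnaja1 passed in 1 class and Dnajb1 in none. Hsph1 in monocyte-like cells was at 13.4 and 24.3 CPM in the wtIDH1 libraries and at 28.3 and 33.4 CPM in the mIDH1 libraries (log2 fold change 0.96, SE 0.27, edgeR adjusted p = 0.0381), and passed in 7 of 13 other settings (adjusted p 0.001018 to 0.2537). In all cells summed it was at 33.4 and 53.4 against 50.7 and 44.9 CPM, where the groups overlapped. Neutrophil-like cells held it at 5.55 and 9.0 against 40.5 and 13 CPM (log2 fold change 2.13, adjusted p = 0.165), from 1 and 3 UMIs in the wtIDH1 libraries.

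Dnaja1 and Dnajb1 encode J-domain proteins of the HSP40 type, which deliver clients to HSP70 and start its ATP cycle. Dnaja1 in monocyte-like cells was at 116 and 145 CPM in the wtIDH1 libraries and at 157 and 211 CPM in the mIDH1 libraries (log2 fold change 0.71, SE 0.22, edgeR adjusted p = 0.0472), and passed in 7 of 13 other settings (0.007804 to 0.2955). In all cells it was at 145 and 188 against 200 and 247 CPM (log2 fold change 0.63, adjusted p = 0.135). Its mIDH1 libraries lay above in neutrophil-like, monocyte-like, microglia-like and T cell-like cells and overlapped in the other 2 classes.

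Dnajb1, a classic HSF1 target, passed in no class. In all cells summed it was at 39.2 and 39.9 CPM in the wtIDH1 libraries and at 45.5 and 50.4 CPM in the mIDH1 libraries (log2 fold change 0.47, SE 0.19, edgeR adjusted p = 0.127). Over the 6 classes its log2 fold change ran from -0.06 to 0.60. In neutrophil-like cells it was 0.26, and -0.25 when libraries were scaled by their totals alone.

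Hsp90aa1 went different ways in different classes. In neutrophil-like cells it was at 505 and 459 CPM in the wtIDH1 libraries and at 1079 and 438 CPM in the mIDH1 libraries, so only the first mIDH1 library was high (log2 fold change 1.05, edgeR adjusted p = 0.157). T cell-like cells had 703 and 817 against 552 and 396 CPM (log2 fold change -0.43, adjusted p = 0.225), and NK cell-like cells 568 and 548 against 375 and 361 CPM (-0.38, adjusted p = 0.316). In both lymphocyte classes the mIDH1 libraries lay below, without passing. All cells summed gave 554 and 727 against 802 and 672 CPM, which overlapped.

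Hspa8 did not pass in any class, with log2 fold changes from -0.08 to 0.32. In all cells summed it was at 1448 and 1690 CPM in the wtIDH1 libraries and at 1479 and 1181 CPM in the mIDH1 libraries (log2 fold change -0.07, SE 0.20, edgeR adjusted p = 0.840). With library totals alone its sign turned in neutrophil-like, monocyte-like, microglia-like and T cell-like cells.

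Hspe1 and Hspd1 encode the mitochondrial chaperonin, HSP60 (Hspd1) and its lid HSP10 (Hspe1), and only Hspe1 was called. In T cell-like cells Hspe1 was at 229 and 247 CPM in the wtIDH1 libraries and at 322 and 419 CPM in the mIDH1 libraries (log2 fold change 0.91, SE 0.21, edgeR adjusted p = 0.0339), and passed in 10 of 13 other settings (0.0001165 to 0.215). Monocyte-like cells had 128 and 187 against 198 and 286 CPM (0.84, SE 0.25, adjusted p = 0.0433), passing in 9 of 13 (0.00136 to 0.301). The groups did not overlap in either class, nor in macrophage-like, microglia-like and NK cell-like cells, where it did not pass (adjusted p = 0.0528, 0.433 and 0.0653). In all cells summed it was at 198 and 267 against 378 and 378 CPM (0.89, SE 0.22, adjusted p = 0.0480), and passed in 5 of 10 other settings (0.001069 to 0.3071).

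Hspd1 lay between -0.47 and 0.47 on the log2 scale over the 6 classes and passed in none. Its mIDH1 libraries lay below the wtIDH1 libraries in T cell-like cells, at 186 and 152 CPM against 205 and 234 CPM (log2 fold change -0.12, edgeR adjusted p = 0.749). All cells summed gave 151 and 198 CPM against 204 and 182 CPM. The 2 genes, which share a promoter region, were thus called unequally, a difference between genes that was not tested.

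**Figure D3:**
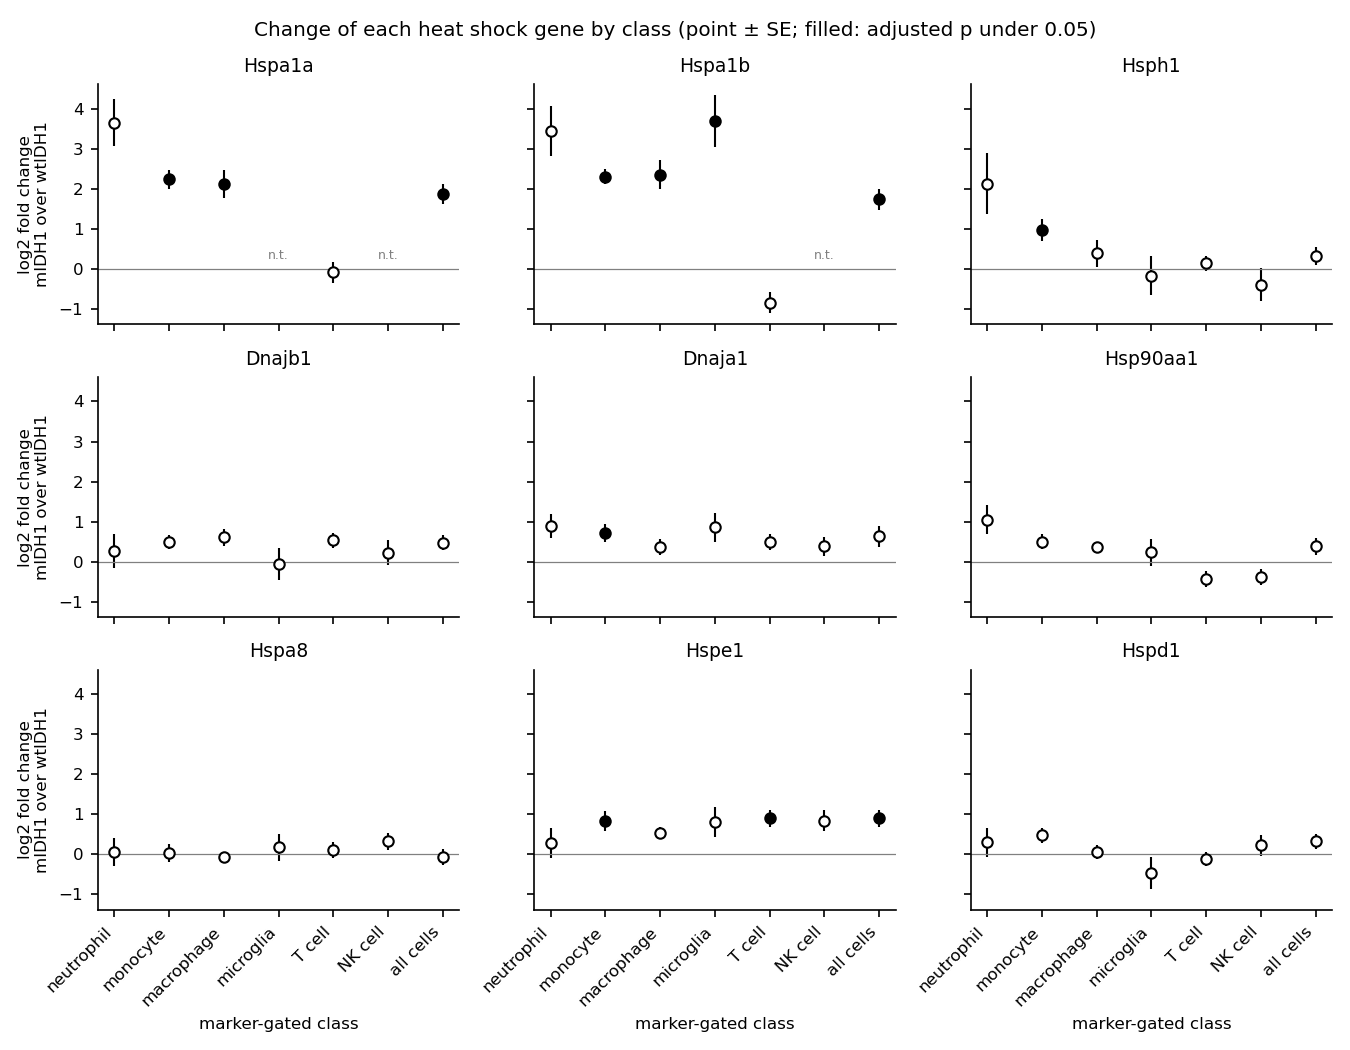
Log2 fold change of each gene, mIDH1 over wtIDH1 (vertical axis), in each class (horizontal axis), with its standard error. Filled points passed an adjusted p of 0.05. Of 51 tested pairs of gene and class 9 are filled, as are 3 of the 9 points for all cells, and all lie above 0 (n.t., not tested).

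Over the 54 pairs of gene and class, 51 were tested and 9 passed, all higher in mIDH1. They were 5 in monocyte-like cells (Hspa1a, Hspa1b, Hsph1, Dnaja1, Hspe1), 2 in macrophage-like cells (Hspa1a, Hspa1b), 1 in microglia-like cells (Hspa1b) and 1 in T cell-like cells (Hspe1). None passed in NK cell-like cells, where 5.37% of genes did and 1 member had an unadjusted p under 0.05. Among all genes the share called higher was 10.4%, 7.77%, 1.19%, 3.64% and 4.43% in monocyte-like, macrophage-like, microglia-like, T cell-like and then NK cell-like cells, and the share called lower 5.64%, 3.49%, 0.19%, 1.02% and 0.93%. In 24 pairs both mIDH1 libraries lay above both wtIDH1 libraries, in 8 below, and in 22 they overlapped. Among all genes the shares above were 10.5%, 22%, 19.1%, 13%, 15.2% and 14.4%, and the shares below 43.7%, 45.5%, 43.9%, 32.8%, 46.5% and 38.7%, in the order neutrophil-like, monocyte-like, macrophage-like, microglia-like, T cell-like and then NK cell-like. The median log2 fold change of the tested members was 0.89, 0.71, 0.39, 0.20, 0.10 and 0.23 in that order, beside a median over all genes between -0.02 and 0.

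Scaling by library totals alone moved the median of all genes to between -0.50 (neutrophil-like) and -0.19 (microglia-like). Under it the signs of Dnajb1, Hspa8, Hspe1 and Hspd1 in neutrophil-like cells turned, as did those of Hspa8 in monocyte-like, microglia-like and T cell-like cells, Hspd1 in macrophage-like and NK cell-like cells, and Hsph1 in T cell-like cells. No Hspa1a or Hspa1b change of a myeloid class turned.

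Whether the change was shared by the classes was tested over all 6 at once, with the library as a block. It differed between classes for Hspa1a (edgeR adjusted p = 0.00485), Hspa1b (adjusted p = 0.00198) and Hsp90aa1 (adjusted p = 0.00296), beside 3.75% of 11106 genes. The joint test took in NK cell-like cells, where Hspa1a and Hspa1b were too low to be tested alone. For Hspa1a that held for microglia-like cells too, and the joint test was not run without these classes. For the other 6 genes no difference was found, with adjusted p of 0.133 for Dnaja1, 0.289 for Hsph1, 0.378 for Hspd1 and 0.890 to 0.947 for Dnajb1, Hspa8 and Hspe1. That does not show that their change was equal in all classes. The test for Hspa1a was lost among cells with at most 5% mitochondrial UMIs (adjusted p = 0.278) and without the first wtIDH1 library (0.0529). That for Hsp90aa1 was lost with library totals alone (0.0785) and without the second wtIDH1 library (0.118).

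Against the mean change of the other 5 classes, that of neutrophil-like cells was larger by 3.09 on the log2 scale for Hspa1a (SE 0.69, edgeR adjusted p = 0.0133) and by 1.27 for Hsp90aa1 (SE 0.23, adjusted p = 0.00394), beside 3.43% of genes. With library totals alone these differences were 2.59 (adjusted p = 0.105) and 0.75 (adjusted p = 0.160). For Hspa1a the mean took in microglia-like and NK cell-like cells, where the gene was too low to be tested alone. Within single classes the log2 fold change of Hspa1a was 3.65 in neutrophil-like, 2.24 in monocyte-like and 2.13 in macrophage-like cells. In T cell-like cells the change was smaller than the mean of the others by -2.86 for Hspa1b (SE 0.71, adjusted p = 0.0655) and -0.88 for Hsp90aa1 (SE 0.22, adjusted p = 0.0639), which did not pass, beside 0.558% of genes. No class other than neutrophil-like passed this contrast for any member.

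Levels differed between the classes for all 9 genes (edgeR adjusted p 7.63e-08 to 0.00106), as they did for 88.4% of all genes. With library totals alone Hsp90aa1 did not pass (adjusted p = 0.0512). Scaling bears on these levels, since library totals alone set the median gene of neutrophil-like cells 0.78 lower on the log2 scale than in the mean of the other classes. Each level is therefore given with both scalings. The fit of levels took both genotypes together and had no term for a genotype change that differs between classes. For Hspa1a, Hspa1b and Hsp90aa1 the levels therefore include such a change.

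Hspa1a had its highest mean in neutrophil-like cells, 171 ± 216 CPM (SD over 4 libraries), which rests on the first mIDH1 library with 488 CPM. In each of the other 3 libraries neutrophil-like cells held less of it than monocyte-like and macrophage-like cells, at 38.9, 27.0 and 131 CPM. By mean it was followed by monocyte-like (103 ± 74.4) and macrophage-like cells (99.7 ± 75.9), then by T cell-like (18.8 ± 3.32), microglia-like (13 ± 8.78) and NK cell-like cells (8.44 ± 12.3). Against the mean of the other classes it was higher by 2.97, 1.51 and 1.39 on the log2 scale in the first 3 (edgeR adjusted p = 9.35e-08, 0.000565 and 0.00181). It was lower by -1.32, -2.08 and -2.47 in the last 3 (adjusted p = 0.0167, 0.0124 and 0.00345). Among all genes 29.4%, 27% and 29% lay above the mean in the first 3 classes, and 28.1%, 15.5% and 24.7% below it in the last 3. All 6 calls held with library totals alone, where the neutrophil-like value was 2.36. Among neighbours in this order, macrophage-like cells exceeded T cell-like cells by 2.26 (adjusted p = 0.000222). In the fit neutrophil-like exceeded monocyte-like cells by 1.22 (adjusted p = 0.0180), against the order of CPM in 3 of 4 libraries, a difference of 0.75 with library totals alone (adjusted p = 0.132). The other neighbours did not differ beyond their spread (adjusted p = 0.509 to 0.897).

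By mean Hspa1b went from 221 ± 289 CPM in neutrophil-like through 144 ± 132 in macrophage-like and 98.9 ± 71.3 in monocyte-like to 17.6 ± 25.4 CPM in NK cell-like cells. Here too the first place rests on the first mIDH1 library, and in the other 3 neutrophil-like cells held less than macrophage-like cells (55.5 against 57.4, 39.0 against 46.9 and 139 against 331 CPM). In the wtIDH1 libraries T cell-like cells held 56.5 and 35.4 CPM. Beside them were 55.5 and 39.0 in neutrophil-like, 57.4 and 46.9 in macrophage-like and 40.1 and 34.5 CPM in monocyte-like cells. No neighbours in its order differed beyond their spread (edgeR adjusted p = 0.0573 to 1). Against the mean of the other classes it was higher in neutrophil-like (2.62, adjusted p = 2.31e-05) and macrophage-like cells (1.29, adjusted p = 0.0161) with either scaling. It was lower in microglia-like (-1.89, adjusted p = 0.0384) and NK cell-like cells (-1.88, adjusted p = 0.0338), calls that were lost with library totals alone (adjusted p = 0.0556 and 0.0786).

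The other members had other orders. Hsph1 was highest in T cell-like cells (72.3 ± 7.37 CPM) and macrophage-like cells (56.7 ± 19.1), above the mean of the other classes by 1.06 and 0.81 on the log2 scale (edgeR adjusted p = 8.33e-05 and 0.00256), and these 2 did not differ from each other (adjusted p = 0.502). Hspd1 was likewise highest in T cell-like (194 ± 34.3 CPM) and macrophage-like cells (175 ± 21.8), by 0.61 and 0.66 (adjusted p = 0.000362 and 0.000231). Hspe1 was above the mean in macrophage-like, T cell-like and microglia-like cells by 0.75, 0.44 and 0.34 (adjusted p = 3.88e-06, 0.00165 and 0.0346). Neutrophil-like cells held the least of the chaperonin pair, at 80.6 ± 29.1 CPM of Hspe1 and 47.9 ± 13.9 of Hspd1, below the mean by -1.08 and -0.91 (adjusted p = 6.15e-07 and 0.000129), as did 28.4% of genes. Each of these calls held with library totals alone.

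Hspa8 was highest in monocyte-like cells (1563 ± 148 CPM) and lowest in neutrophil-like cells (507 ± 196), by 0.67 and -0.86 (edgeR adjusted p = 1.59e-05 and 1.90e-06), with either scaling. Dnajb1 and Dnaja1 lay below the mean of the other classes in macrophage-like cells, at 31.3 ± 6.85 and 155 ± 27.3 CPM, by -0.76 and -0.32 (adjusted p = 0.000145 and 0.0242), with either scaling. Dnaja1 did so in microglia-like cells too (-0.49, adjusted p = 0.00417). Neutrophil-like cells lay above the mean for Dnajb1 (0.69), Dnaja1 (0.73) and Hsp90aa1 (0.80), with adjusted p of at most 0.000915. With library totals alone these were 0.03, 0.14 and 0.24 and none passed (adjusted p = 0.921, 0.253 and 0.232), so no direction is given for them.

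**Figure D4:**
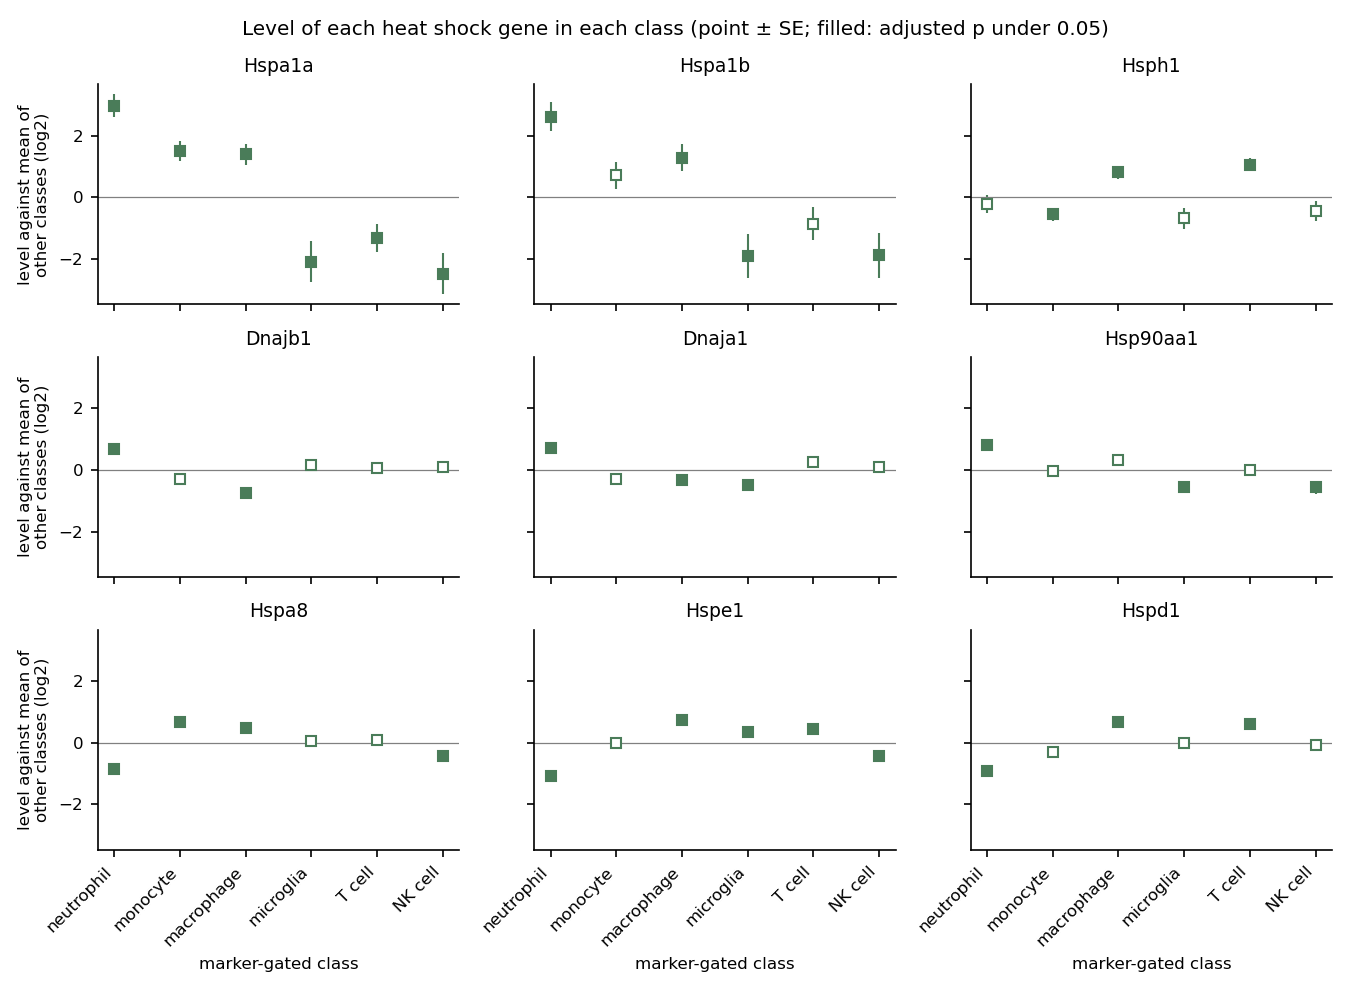
Level of each gene in each class less the mean of the other 5 classes, both genotypes together (vertical axis, log2, with standard error). Filled points passed an adjusted p of 0.05. Hspa1a lies at 2.97 in neutrophil-like and at -2.47 in NK cell-like cells, while Hspe1 is lowest, at -1.08, in neutrophil-like cells.

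Shares of cells with a UMI of the other genes followed each gene's abundance. Hspa8 was found in 83.0% to 99.4% of the cells of every library in 5 classes and in 35.7% to 56.9% of neutrophil-like cells, whose median depth was 1631 to 2320 UMIs. Hspe1 in T cell-like cells was found in 43.2% and 47.5% of cells in the wtIDH1 libraries and in 67.0% and 75.7% in the mIDH1 libraries. Thinned to 1000 UMIs these were 14.3% and 16.2% against 22.4% and 28.3%, so the groups stayed apart at equal depth. In monocyte-like cells Hsph1 was found in 9.73% and 14.7% against 18% and 18.6%, and in 1.08% and 2.17% against 2.26% and 2.74% after thinning.

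Damaged cells have a larger share of mitochondrial UMIs. For T cell-like cells the Hspa1 level was higher in each next tier of that share in both wtIDH1 libraries, an order that both libraries of a genotype showed in none of the neutrophil-like, monocyte-like and macrophage-like cells. In T cell-like cells of the wtIDH1 libraries, Hspa1 was at 37.4 and 18.1 CPM in cells with up to 5% mitochondrial UMIs, at 98.7 and 75.9 CPM between 5% and 10%, and at 197 and 184 CPM in the cells over 10% that were left out. The last tier rests on very few cells, as only 2.63% of 76 and 2.44% of 41 held any Hspa1. The share of cells with Hspa1 did not follow the order, at 1.74% and 2.94% in the first tier and 5.43% and 4.78% in the second. The mIDH1 libraries showed no such order, with 42.2 and 34.0 CPM in the first tier and 45.1 and 8.19 CPM in the second. From the first to the second tier the level rose in monocyte-like cells of every library. The wtIDH1 libraries went from 79.1 and 59.6 to 141 and 86.5 CPM, the mIDH1 libraries from 299 and 336 to 326 and 666 CPM. In macrophage-like cells it rose in all but the first mIDH1 library (275 to 196 CPM). Neutrophil-like cells showed a rise only in the second mIDH1 library (263 to 294 CPM). Single libraries showed the full order, wtIDH1 1 for monocyte-like and wtIDH1 2 for macrophage-like cells. In the first tier the genotypes of neutrophil-like cells were at 98.2 and 84.1 against 1307 and 263 CPM, and those of monocyte-like cells at 79.1 and 59.6 against 299 and 336 CPM. The myeloid differences were therefore present among cells with at most 5% mitochondrial UMIs. The part of cell damage in these values was not tested in any class.

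**Figure D5:**
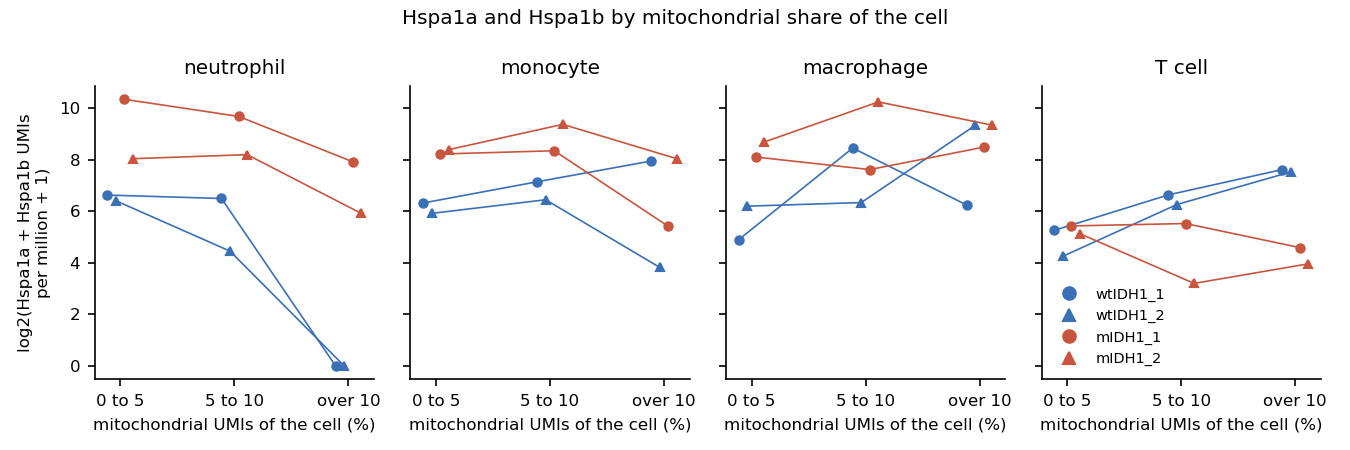
Hspa1a and Hspa1b together as log2 of CPM plus 1 (vertical axis) in cells with up to 5%, 5% to 10% and over 10% mitochondrial UMIs (horizontal axis), 1 point per library, joined by lines, in 4 classes. In T cell-like cells the wtIDH1 libraries go from 37.4 and 18.1 to 197 and 184 CPM, while the mIDH1 libraries end below their first tier. In that last wtIDH1 tier only 2.63% of 76 and 2.44% of 41 cells held any Hspa1.

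RNA set free from broken cells also gives UMIs in droplets of other cells. Its level was estimated from genes taken as foreign to a class. These were S100a8 and S100a9 of neutrophils or C1qa, C1qb, C1qc and Apoe of macrophages and microglia. The estimate assumes that free RNA has the make-up of all kept cells of a library. It also assumes that the class makes none of these genes. Neither was tested, so the estimate does not bound the true level. For Hspa1a it was 0.394 to 8.34 CPM in T cell-like and NK cell-like cells. It was 3.80, 7.24, 26.3 and 9.58 CPM in monocyte-like cells, under the measured 47.9, 32.2, 149 and 183 CPM. In neutrophil-like cells it was 10.4 and 24.4 CPM in the wtIDH1 libraries, where 38.9 and 27.0 CPM were measured, and 35.8 and 38.3 CPM in the mIDH1 libraries, where 488 and 131 CPM were. In microglia-like cells it was 48.3, 17.1, 32.4 and 10.8 CPM against a measured 11.7, 2.32, 23.7 and 14.2 CPM, so Hspa1a there was below this estimate in 3 libraries and 14.2 against 10.8 CPM in the other. The part of free RNA in the Hspa1a UMIs of microglia-like cells was not tested. S100a8 and S100a9 were higher in mIDH1 in every class but the neutrophil-like by the same test, for example S100a8 at 38.8 and 58.4 against 623 and 850 CPM in monocyte-like cells.

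Among other genes that HSF1 induces or that work with these chaperones, few were called. Of 20 tested in monocyte-like cells 4 rose and none fell: Hspb1 (3.47 and 1.13 against 14.4 and 23.2 CPM, log2 fold change 3.04, edgeR adjusted p = 0.00220), the ubiquitin gene Ubb (1.17, adjusted p = 0.0159), the HSP90 activator Ahsa1 (0.78, adjusted p = 0.0252) and Zfand2a (1.07, adjusted p = 0.0360). Macrophage-like cells had 3 of 19 up, Hspb1 (4.63, adjusted p = 0.000858), Ubb and Zfand2a, and T cell-like and NK cell-like cells had 1 each, Ubb. Few cells carried the Hspb1 of macrophage-like cells. In the first mIDH1 library 141 of its UMIs lay in the 18 cells with 5 or more Hspa1 UMIs, and 37 in the rest. Only 5.56% of those 18 cells held any Hspb1. In the second mIDH1 library the counts were 16 and 21 UMIs. Neutrophil-like and microglia-like cells had none by this test, with 2 and 1 genes at an unadjusted p under 0.05. The median of the list was 0.26 in monocyte-like and 0.06 in macrophage-like cells.

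Of the regulators and partners of HSP70, 2 of 8 rose in monocyte-like and in macrophage-like cells. They were Hsbp1, a binding protein of HSF1 (log2 fold change 0.99 and 0.91, edgeR adjusted p = 0.00813 and 0.00746), and Hikeshi, which carries HSP70 into the nucleus (0.90 and 0.80, adjusted p = 0.0252 and 0.0405). Hsbp1 also rose in T cell-like and microglia-like cells. Of 7 mitochondrial chaperones and proteases, Grpel1, the exchange factor of mitochondrial HSP70, rose in monocyte-like, macrophage-like and T cell-like cells (1.20, 1.04 and 1.52), and no other was called. None of the 7 subunits of the cytosolic chaperonin TRiC was called in any class, with at most 2 at an unadjusted p under 0.05.

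Chaperones of the endoplasmic reticulum, which answer to another stress pathway, had 3 of 16 up in monocyte-like cells, Pdia4 (log2 fold change 1.25, edgeR adjusted p = 0.00976), Sdf2l1 and Manf, and a list median of -0.04. Of 18 immediate early genes, 2 rose and 4 fell in monocyte-like cells, where Nr4a1 was at 128 and 183 against 52.3 and 62.8 CPM (-1.22, adjusted p = 0.00585). In macrophage-like cells 4 rose, Klf2 (1.80, adjusted p = 0.00217), Atf3 (1.35, 0.00454), Klf4 (1.52, 0.00454) and Nfkbia (0.54, 0.0330), and Nr4a1 fell (-1.14, 0.0305). In T cell-like cells 2 of 18 fell. In NK cell-like cells 5 of 17 fell and Ier3 rose (2.78, adjusted p = 0.000914).

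Over the 24 sums of library and class, Hspa1a was most like Hspa1b (Pearson r of log2 CPM 0.91). Among 6289 other genes with at least 20 CPM on average, those most like Hspa1a were Ero1l (0.86), Ldha (0.84), Slc2a1 (0.83), Txn1 (0.82) and Rgcc (0.81). Those most like Hspa1b were Noct (0.84), Ero1l, Ldha, Hilpda and Glrx. Ero1l oxidises proteins in the endoplasmic reticulum, Ldha makes lactate and Slc2a1 takes up glucose. Hspa1a and Hspe1 had r of -0.19, and Hspe1 and Hspd1 had 0.82. The sums share libraries and differ in depth, so these values are descriptive.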

How the data were processed

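The authors deposited UMI counts per gene and cell for 4 libraries; per the labels they were made with Cell Ranger 3.1, STAR and mm10, while the file header names software 3.0.0. The same labels speak of normalization to equal depth by aggregation, but the deposited values are whole counts whose totals differ (20908476 to 29849183 a library). Members and gene lists were chosen with earlier results of these data known.

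Cells with at least 200 genes and at most 10% mitochondrial UMIs were kept. A class needed 3 of its 8 markers and a lead of 1 marker over any other class, or 3 for neutrophil-like cells. These limits were set after the data were seen. A first fit with a neutrophil lead of 1 let in cells rich in C1q genes and Apoe. It called 36 neutrophil genes, Hspa1a the only member, against 0 with the lead of 3. Cells with markers of more than 1 lineage were left out in place of a doublet caller. Sums of the counts of each class in each library were fitted with edgeR 4.0.16 (TMM, quasi-likelihood, Benjamini-Hochberg adjustment over all genes tested) in R 4.3.3. The joint tests had the library as a block. Alternatives were library totals alone, DESeq2 1.42.0, other filters and gates, a replicate block and leaving out each library. The edgeR fits were tested on simulated data. Hspa1 intervals are Wilson 95% intervals. All members are named, Hspa1a and Hspa1b in every class, the others by library where they passed and in all cells, and further values (Hsp90aa1, Hspd1, neutrophil Hsph1) were chosen after they were seen. From every other list up to 4 genes of lowest p may be named, and up to 5 genes most like a member. Descriptions used Python 3.11.15, numpy 2.4.6, scipy 1.17.1 and pandas 2.3.3.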

Additional observations from a re-analysis of the deposited data

Results flagged for a closer look

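The change between genotypes differed between the classes for 3 genes in the joint edgeR test, with adjusted p of 0.00485 for Hspa1a, 0.00198 for Hspa1b and 0.00296 for Hsp90aa1. In neutrophil-like cells it exceeded the mean change of the other classes by 3.09 on the log2 scale for Hspa1a and by 1.27 for Hsp90aa1, and neither difference passed with library totals alone. The joint test and this mean took in NK cell-like cells, where Hspa1a and Hspa1b were too low to be tested alone. Hspa1a was also too low in microglia-like cells. Neutrophil-like cells numbered 84 and 153 in the wtIDH1 libraries, and Hsp90aa1 was high in 1 of the 2 mIDH1 libraries.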

How the results depend on the processing

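The count of gene and class pairs past the threshold was 9. It was 17 among genes with any count, 7 to 18 when 1 library was left out (18 without the first mIDH1 library) and 12 with the replicate block. In all cells summed, 3 genes passed, 0 to 5 with 1 library left out (0 without the first wtIDH1 or the second mIDH1 library, 5 without the first mIDH1 library) and 2 with the block. The genes whose change differed between classes numbered 2 to 4, and those whose level did 8 or 9, over all settings. In T cell-like cells the change of Hspa1a turned to 2.08 with at most 5% mitochondrial UMIs and to 0.031 with a stricter gate, and ran from -0.20 to 0.031 with 1 library left out. That of Hspa1b turned to 0.22 with at most 5% mitochondrial UMIs. The 2.08 of Hspa1a rests on 6 and 1 UMIs in the wtIDH1 libraries. The share of T cell-like cells with an Hspa1 UMI, -0.508 points, turned to 1.99 with at most 5% mitochondrial UMIs and ran from -1.28 to 0.263 with 1 library left out, and that of NK cell-like cells from -0.366 to 3.71. The cause was not tested. All genes called in neutrophil-like cells numbered 0 in the reported fit, 496 with library totals alone, 167 by DESeq2, 515 with any count, 140 with at most 5% mitochondrial UMIs, 191 and 177 with a stricter and a looser gate, 7 to 499 with 1 library left out and 36 with a lead of 1 marker. Replicate numbers were only shared numbers: deviations of same-numbered libraries correlated at -0.172 to 0.0152. With the replicate block Hspa1a and Hspa1b passed in neutrophil-like cells (3.42, edgeR adjusted p = 0.0193, and 3.15, adjusted p = 0.0347), and Hspe1 in all cells did not (0.90, adjusted p = 0.0563). The wtIDH1 libraries held few neutrophil-like cells, and the second mIDH1 library few microglia-like cells, which limits the depth of those sums.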

Other observations

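In some classes too small to be tested, single cells held most Hspa1 UMIs. In the second wtIDH1 library, cDC1-like cells held 556 Hspa1 UMIs, 23.4% of the library's, and 553 of them lay in 1 of 43 cells. One B cell-like cell of that library held all 30 of its class's Hspa1 UMIs. Basophil-like or mast cell-like cells held 283 UMIs in 48 cells and 117 UMIs in 19 cells of the mIDH1 libraries, 104 of the latter in 1 cell, and 0 in the 4 and 5 cells of the wtIDH1 libraries. In other small classes more cells held it, such as 13 of 35 and 8 of 17 tumour-like or glial-like cells of the mIDH1 libraries and 8 of 17 in the second wtIDH1 library, and 7 of 25 cDC2-like cells in the first mIDH1 library.

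Mature dendritic cell-like cells differed in the mitochondrial chaperonin. Hspe1 was at 109 and 181 CPM in the wtIDH1 libraries and at 730 and 786 CPM in the mIDH1 libraries, and Hspd1 at 71.9 and 83.1 against 397 and 474 CPM. The groups did not overlap for either gene, and no test was run. Cells with an Hspe1 UMI held 1.52 and 1.76 of them on average against 13.1 and 13.2. At 1000 UMIs a cell, the share of cells with one was 13.1% and 16.5% against 25.8% and 34.9%, a smaller ratio than that of the CPM. Very deep cells were among those summed, and CPM weights cells by depth. In the first mIDH1 library 2 cells with 5 or more Hspa1 UMIs had a median of 82392.5 UMIs, beside a class median of 6532. In the second, 1 such cell had 49805 UMIs, beside 6577. The part of such cells in the CPM was not tested. Hspa1a in these cells was at 10.7, 75.5, 7.71 and 9.92 CPM.

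Cells in no class held Hspa1 at 76.8 and 142 CPM in the wtIDH1 libraries and at 307 and 450 CPM in the mIDH1 libraries. Cells with markers of more than 1 lineage held it at 51.3 and 32.6 against 45.8 and 33.7 CPM. Among neutrophil-like cells, Hspa1a was at 42.4, 27.9, 520 and 149 CPM in those poor in granule genes. Those rich in granule genes held 0, 0, 8 and 5 UMIs of it.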
